A study of Drosophila melanogaster with 8 samples.

Results

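Serotonin signalling in the adult fly head was followed through 6 genes of the 15240 in the deposited table: Trh, SerT, 5-HT1A, 5-HT1B, 5-HT2 and 5-HT7. They were chosen by name, as the genes of neuronal serotonin synthesis, reuptake and reception, and all 6 were found under these symbols. The row trh is a different gene, trachealess, and was not used. RNA had been sequenced from whole heads of Drosophila melanogaster, as total RNA of about 90 heads per sample, from adults 6 days old that were socially naive. The groups were Bully flies raised at 25C, Bully flies raised at 19C, Canton-S (CantonS) flies raised at 25C and CantonS flies raised at 19C, with 2 libraries each. Bully is a hyper-aggressive line in the Canton-S background. No transgene is named in the labels. Letters a and b name the libraries within each group and carry no pairing, and n = 2 for every group mean.

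Serotonin is made from tryptophan, and in neurons tryptophan hydroxylase (Trh) catalyses the rate-limiting step. The serotonin transporter (SerT) clears released serotonin from the extracellular space back into serotonergic neurons. The fly receptors are G protein-coupled: 5-HT1A and 5-HT1B lower cyclic AMP, 5-HT7 raises it, and 5-HT2 (5-HT2A in current annotation) signals through calcium. In flies serotonin has known roles in aggression, sleep, feeding and learning, and its neurons are a small share of the brain. In whole-head RNA, fewer cells of a type and less RNA per cell cannot be told apart.

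Values are RPKM (reads per kilobase of gene, scaled by a measure of library size), made by the authors. The gene lengths they used are not given in the sources used here, so levels of different genes are compared only as deposited. Effective library sizes, read from the steps between RPKM values, were 47.6 M to 117.8 M reads. With the longest annotated transcript as the length, the 6 genes rested on about 376 to 3228 reads per library. The counting error (the square root of the reads over the reads) was then at most 5.16%. At this length, reads came out whole for 5-HT1A alone (1369 in Bully 25C a, against 1148.6 for Trh and 1252.21 for SerT). The length behind the RPKM of the others can therefore differ from the annotated one, which would change these reads and errors. Neuron markers were present, with all 12 of the listed genes at 1 RPKM or more in every library. The library CantonS 19C b stood apart. Its log2 level changed by -0.16 per doubling of gene length relative to the mean library, against -0.03 to 0.07 in the others, and 8 of the 12 neuron markers had their lowest value there. There elav, a pan-neuronal gene, had 1.43 RPKM, against 3.04 to 4.24 RPKM elsewhere. Where a difference of the 6 genes rests on this library, its value without it is given. Groups are said not to overlap where all values of 1 group lie above all values of another. The share of all genes with such a split is not given, so it is a description and no test. The labels do not say whether replicates came from separate cultures, so p-values measure only the spread between these libraries.

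All 6 genes were expressed in every library, and their order in RPKM was nearly the same throughout. The receptor gene 5-HT2 averaged 6.29 RPKM over the 8 libraries and Trh 5.16 RPKM. SerT averaged 3.57 RPKM and 5-HT1A 3.06 RPKM. The lowest were 5-HT1B at 1.91 RPKM and 5-HT7 at 1.82 RPKM. Among the 10679 genes tested, these means ranged from percentile 29.5 (5-HT7) to percentile 62.8 (5-HT2). Trh was above SerT in 8 of 8 libraries, by 1.24-fold to 1.99-fold. SerT was above 5-HT1A in 8 of 8 libraries as well, by 1.01-fold to 1.38-fold, and the ranges of these genes over the libraries overlapped. 5-HT1A was above 5-HT1B in 8 of 8, by 1.37-fold to 2.01-fold. 5-HT1B and 5-HT7 had no fixed order, with 5-HT1B higher in 4 of 8 libraries. Trh and 5-HT2 had no fixed order either. Trh was the higher in 2 of 8 libraries, which were the 2 of CantonS 19C.

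**Figure D1:**
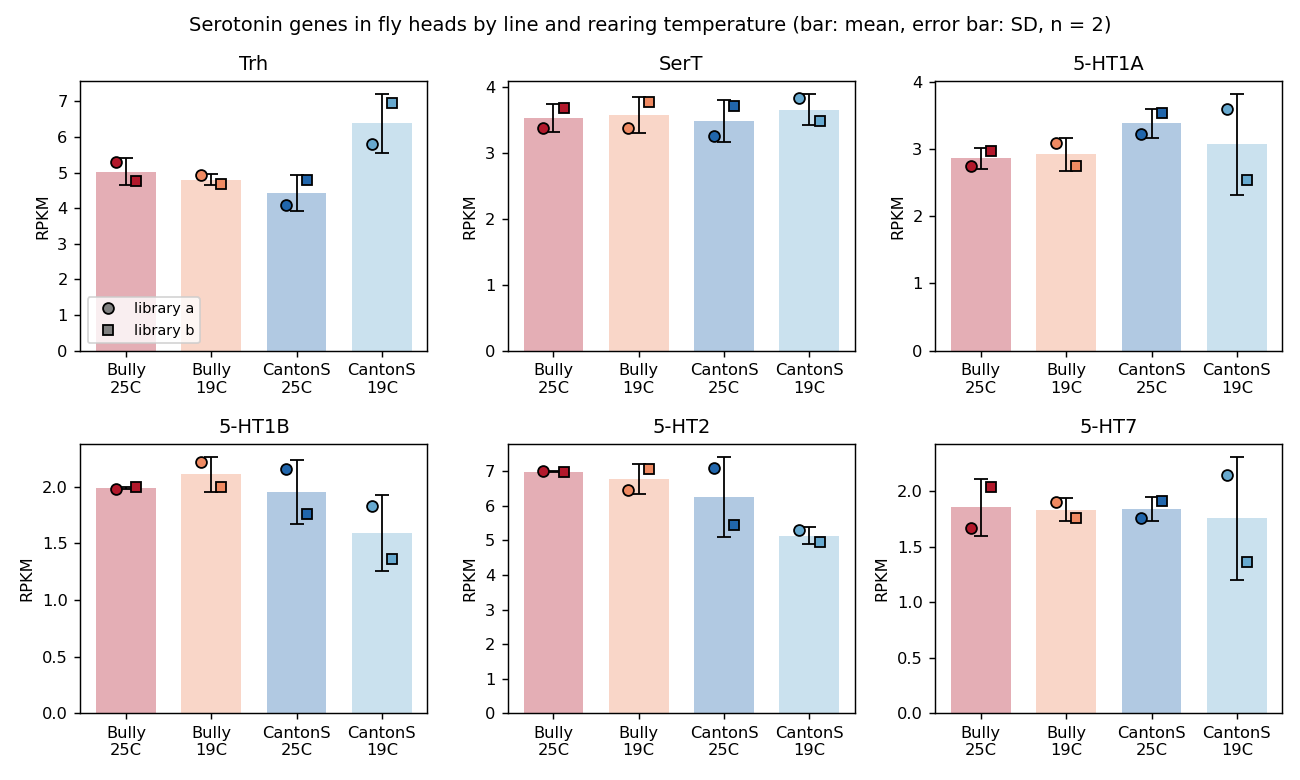
RPKM of the 6 serotonin genes (vertical axes, each from 0) in Bully 25C, Bully 19C, CantonS 25C and CantonS 19C (horizontal axes), with circles for library a, squares for library b, bars for the mean and error bars for the SD of 2 libraries. Trh is highest in CantonS 19C (6.38 RPKM) and 5-HT2 lowest there (5.14 RPKM), while the means of SerT lie between 3.49 and 3.66 RPKM in all 4 groups.

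The gene of the synthesis enzyme, Trh, had 5.30 and 4.75 RPKM in Bully 25C, 4.92 and 4.69 RPKM in Bully 19C, 4.08 and 4.80 RPKM in CantonS 25C, and 5.80 and 6.97 RPKM in CantonS 19C. The CantonS 19C libraries were the 2 highest of the 8 and did not overlap with any other group. The other 3 groups overlapped with each other. Its mean was 4.44 ± 0.50 RPKM in CantonS 25C and 6.38 ± 0.83 RPKM in CantonS 19C (SD, n = 2 each), a log2 difference of -0.51 (SE 0.15, 95% interval -0.85 to -0.17). This was the difference of the 6 genes nearest to the threshold, and it did not pass (limma, adjusted p = 0.0827). Within Bully the same temperature difference was 0.06 (SE 0.15, 95% interval -0.28 to 0.40, adjusted p = 1.00). The difference between these temperature effects, the interaction, was 0.58 (SE 0.21, 95% interval 0.09 to 1.06) and did not pass either (adjusted p = 0.184). At 19C, Trh averaged 4.80 ± 0.16 RPKM in Bully and 6.38 ± 0.83 RPKM in CantonS, a log2 difference of -0.40 (SE 0.15, adjusted p = 0.123).

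CantonS 25C a, the library of the smallest effective size (47.6 M reads), held the lowest Trh value. Over all alternative settings, leaving it out among them, the difference between 25C and 19C in CantonS stayed between -0.64 and -0.38. The library CantonS 19C b held the highest Trh value. Without it the difference between 25C and 19C in CantonS was -0.38 (adjusted p = 0.222), the line difference at 19C was -0.27 (adjusted p = 0.307) and the interaction 0.44 (adjusted p = 0.274). Without CantonS 19C a, which leaves CantonS 19C b alone in its group, the temperature difference in CantonS was -0.64 with an adjusted p of 0.0394. In that fit the lone library is assumed to vary like those of the other groups, so the value is no replicated test of CantonS 19C. With the trend of each library with gene length removed, it was -0.39 (adjusted p = 0.140), and the line difference at 19C was -0.36 (adjusted p = 0.0865). Trh is the shortest of the 6 genes, at 2183 bases of exon in the BDGP6 annotation, against 3725 to 5410 for the others. It shares 89 exon bases with CG13912 on the opposite strand, and whether reads were counted by strand is not given in the sources used here. The level of CG13912 was 13.1 RPKM in CantonS 19C b, against 7.98 to 11.5 RPKM elsewhere. The part of its reads in the Trh values was not tested.

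The gene of the serotonin transporter, SerT, was the steadiest of the 6. It had 3.39 and 3.68 RPKM in Bully 25C, 3.38 and 3.78 RPKM in Bully 19C, 3.26 and 3.71 RPKM in CantonS 25C, and 3.83 and 3.49 RPKM in CantonS 19C. All groups overlapped, and the highest library was 1.17-fold above the lowest. Its residual SD between replicates was 0.10 on the log2 scale, at percentile 16.4 of all genes tested. The line difference averaged over temperatures was -0.01 (SE 0.10, adjusted p = 0.980), with a 95% interval from 0.85-fold to 1.16-fold. The temperature difference averaged over lines was -0.04 (SE 0.10, adjusted p = 0.882), with a 95% interval from 0.83-fold to 1.13-fold. Changes within these intervals remained possible with 2 libraries per group, and the intervals are not limits of detection.

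The 2 receptor genes of the type that lowers cyclic AMP, 5-HT1A and 5-HT1B, had no difference that passed. They were not compared with each other. 5-HT1A had 2.75 and 2.97 RPKM in Bully 25C, 3.09 and 2.75 RPKM in Bully 19C, 3.22 and 3.53 RPKM in CantonS 25C, and 3.60 and 2.53 RPKM in CantonS 19C. Both Bully 25C libraries lay below both CantonS 25C libraries, and at 19C the lines overlapped, with CantonS 19C holding both the highest and the lowest value of the 8. The line difference of 5-HT1A at 25C was -0.23 (SE 0.18, adjusted p = 0.551). At 19C the value was -0.05 (SE 0.18, adjusted p = 0.886), and it turned with the library left out: -0.29 without CantonS 19C b (adjusted p = 0.253) and 0.19 without CantonS 19C a (adjusted p = 0.360).

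5-HT1B had 1.98 and 2.00 RPKM in Bully 25C, 2.22 and 2.00 RPKM in Bully 19C, 2.15 and 1.75 RPKM in CantonS 25C, and 1.83 and 1.36 RPKM in CantonS 19C. The Bully 19C libraries lay above both CantonS 19C libraries, while the lines overlapped at 25C. The line difference of 5-HT1B at 19C was 0.40 (SE 0.18, 95% interval -0.02 to 0.81, adjusted p = 0.186). The 25C value was 0.03 (SE 0.18, adjusted p = 0.948). The 19C value was 0.19 without CantonS 19C b (adjusted p = 0.504) and 0.60 without CantonS 19C a (adjusted p = 0.0562).

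The receptor gene 5-HT2 had a higher mean in Bully at both temperatures, and neither difference passed. It had 7.002 and 6.98 RPKM in Bully 25C, 6.46 and 7.08 RPKM in Bully 19C, 7.09 and 5.44 RPKM in CantonS 25C, and 5.31 and 4.96 RPKM in CantonS 19C. The 4 Bully libraries and CantonS 25C a lay between 6.46 and 7.09 RPKM, and the other 3 CantonS libraries between 4.96 and 5.44 RPKM. At 19C the lines did not overlap, with means of 6.77 ± 0.44 RPKM in Bully and 5.14 ± 0.25 RPKM in CantonS (SD, n = 2 each). The log2 difference at 19C was 0.39 (SE 0.15, 95% interval 0.04 to 0.74, limma adjusted p = 0.133). At 25C it was 0.17 (SE 0.15, adjusted p = 0.611), and -0.02 without CantonS 25C b (adjusted p = 0.960). Averaged over temperatures it was 0.28 (SE 0.11, 95% interval 0.03 to 0.52, adjusted p = 0.155). At 19C the value was 0.34 without CantonS 19C b (adjusted p = 0.268) and 0.22 with the length trend removed (adjusted p = 0.316).

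The neuron markers had a median log2 difference of 0.40 between Bully and CantonS at 19C, beside 0.40 for 5-HT1B and 0.39 for 5-HT2, and -0.17 at 25C. Between 25C and 19C in CantonS their median was 0.55. Limma called 0 of the 12 in these comparisons. At an unadjusted p below 0.05 there were 0 between the lines at 19C and 1 at 25C, beside 29.0% and 17.2% of all genes. Between the temperatures in CantonS there were 2, beside 27.7%. Their summed level, in which n-syb and nrv3 weigh most, was 557 and 509 RPKM in Bully 19C, against 506 and 490 RPKM in CantonS 19C. Of the 12 markers, 8 had their lowest value in CantonS 19C b, and medians without it are not given here. Without CantonS 19C b, the line difference at 19C was 0.19 for 5-HT1B and 0.34 for 5-HT2. In CantonS 19C a, the markers brp, Syx1A, futsch, cac, CadN and onecut lay above both Bully 19C libraries. Below both lay n-syb and Syt1, and the other markers lay between them. This library had 17.1 RPKM of brp (7.63 and 8.22 RPKM in Bully 19C) and 3.35 RPKM of elav (3.44 and 3.04 RPKM). It had 198 RPKM of n-syb (248 and 226 RPKM in Bully 19C). The part of neuronal RNA in the receptor differences was not tested.

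The gene of the receptor that raises cyclic AMP, 5-HT7, had 1.67 and 2.04 RPKM in Bully 25C, 1.91 and 1.76 RPKM in Bully 19C, 1.76 and 1.92 RPKM in CantonS 25C, and 2.15 and 1.36 RPKM in CantonS 19C. The groups overlapped in every comparison, and CantonS 19C held the highest and the lowest library. Its residual SD was 0.25 on the log2 scale, the widest of the 6 genes. The line difference averaged over temperatures was 0.05 (SE 0.15, adjusted p = 0.891), with a 95% interval from 0.81-fold to 1.32-fold. It turned with the library left out, at 0.20 without CantonS 19C a (adjusted p = 0.264) and -0.11 without CantonS 19C b (adjusted p = 0.5715). The line difference of 5-HT7 at 19C was 0.09 (SE 0.22, adjusted p = 0.817), and it was 0.40 and -0.22 with the same libraries left out. The temperature difference averaged over lines was 0.05 (SE 0.15, adjusted p = 0.913), and -0.10 without CantonS 19C b (adjusted p = 0.762).

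The comparisons between Bully and CantonS asked which head transcripts differ with the line, at each rearing temperature and averaged over them. Of the 6 serotonin genes, limma called 0 at 25C, where 3.46% of all genes tested were called. It called 0 at 19C, against 10.3% of all genes, and 0 in the average over temperatures, against 9.21%. At an unadjusted p below 0.05 there were 0 of the 6 genes at 25C, 2 at 19C (Trh lower and 5-HT2 higher in Bully) and 1 in the average (5-HT2). Of all genes, 17.2%, 29.0% and 24.1% had such a p, so 2 of 6 is near the share of all genes. The median absolute log2 difference of the 6 genes was 0.10 at 25C, 0.24 at 19C and 0.13 in the average, beside 0.20, 0.27 and 0.16 over all genes tested.

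The comparisons between 25C and 19C asked which transcripts follow the rearing temperature. Limma called 0 of the 6 genes in Bully (0.0562% of all genes), 0 in CantonS (0.253%) and 0 in the average over lines (0.0468%). At an unadjusted p below 0.05 there were 0, 1 (Trh) and 0 of the 6, beside 4.14%, 27.7% and 11.6% of all genes. Their median absolute log2 difference was 0.04 in Bully, 0.21 in CantonS and 0.08 in the average, beside 0.12, 0.27 and 0.13 over all genes. In Bully no gene of the 6 had a log2 difference beyond 0.08 in size between the temperatures. The interaction compares the line difference at 25C with that at 19C. Limma called 0 of the 6 there, and 0% of all genes (2268 of 10679 at an unadjusted p below 0.05), with 1 of the 6 (Trh) at an unadjusted p below 0.05. The comparisons in CantonS and at 19C share the CantonS 19C libraries.

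**Figure D2:**
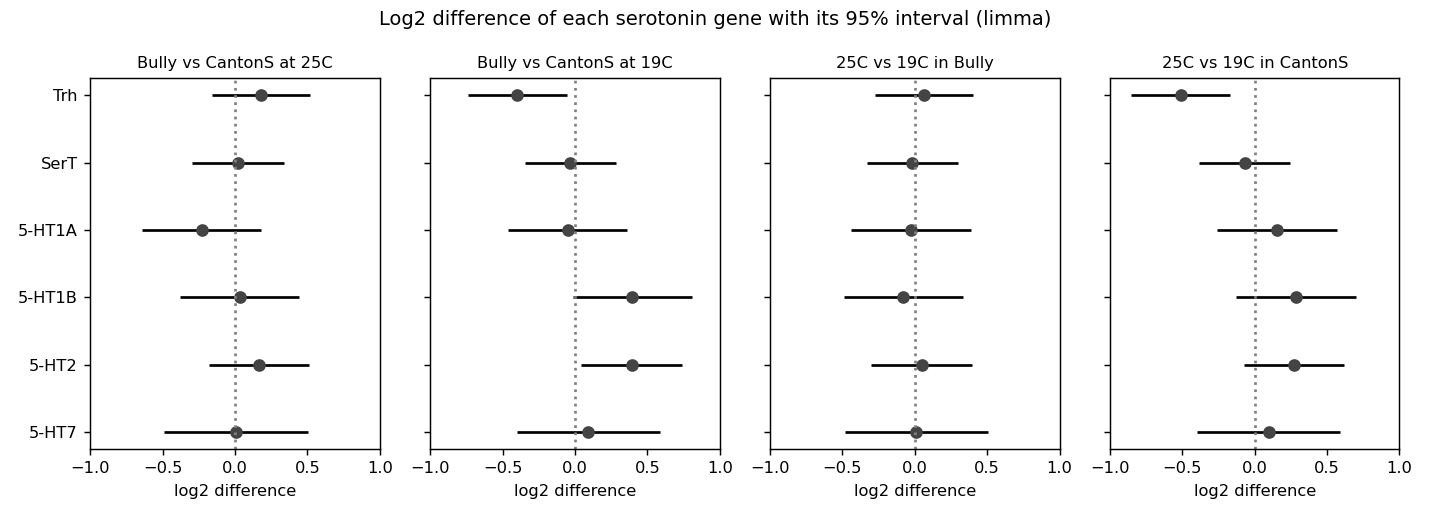
Log2 difference of each serotonin gene (horizontal axes, on the log2(RPKM + 0.1) scale) with its 95% interval from limma, in Bully against CantonS at 25C and at 19C and in 25C against 19C within Bully and within CantonS. The intervals of Trh at 19C and in CantonS and of 5-HT2 at 19C do not reach 0, and none of the differences passed adjustment over all 10679 genes.

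The library CantonS 19C b held the extreme value of 5 of the 6 genes. It had the lowest value of 4 (5-HT1A, 5-HT1B, 5-HT2 and 5-HT7) and the highest of 1 (Trh). Of all genes tested, 16.9% had their lowest value in this library and 34.2% their highest. CantonS 25C a held the lowest value of the other 2 (Trh and SerT), and of 27.1% of all genes tested. The values that follow are of CantonS 19C b. On the log2 scale it lay 0.44 above the mean of the 8 libraries in Trh. It lay below that mean by -0.25 in 5-HT1A, -0.32 in 5-HT2, -0.38 in 5-HT7 and -0.45 in 5-HT1B. SerT was near its mean there, at -0.03.

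**Figure D3:**
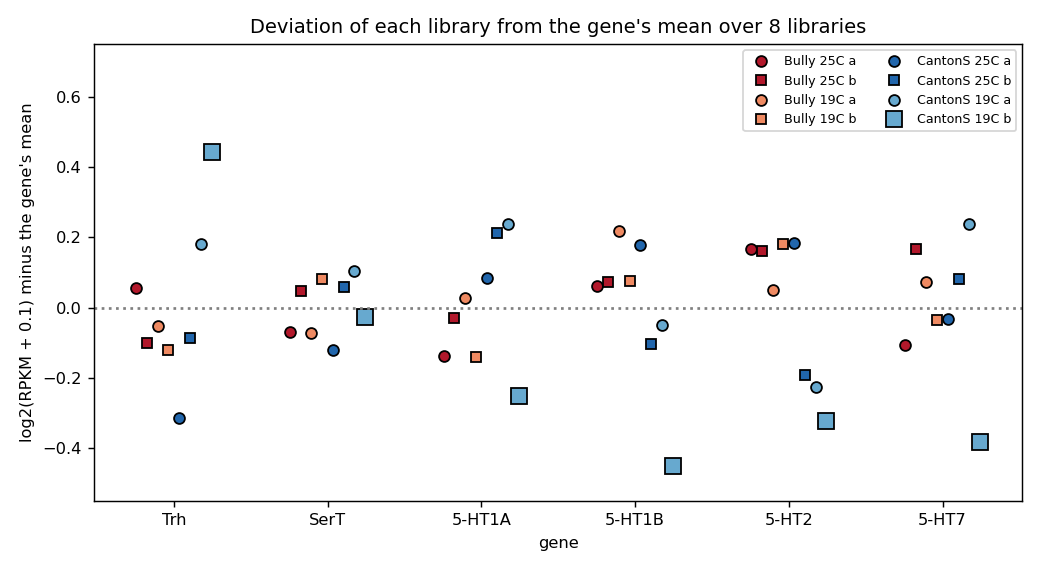
Deviation of each library from the mean of the gene over 8 libraries (vertical axis, log2(RPKM + 0.1)) for the 6 serotonin genes (horizontal axis), with circles for libraries a and squares for libraries b. The larger square marks CantonS 19C b, at 0.44 for Trh and between -0.45 and -0.25 for the 4 receptor genes.

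Around these genes, a list of 17 genes covered other steps of serotonin, tryptophan and pteridine metabolism, a further receptor gene and amino acid transporters. Averaged over temperatures 4 of the 17 were higher in Bully and 0 lower, where 516 of the 10679 genes tested were higher and 468 lower (9.21% called in all). The median log2 difference of the list was 0.26, beside 0.00 over all genes tested. The list was chosen with earlier results of these data known, so its count and median are a description and no test. Those that rose were KFase, Dat, cn and st. KFase, kynurenine formamidase on the route that breaks down tryptophan, had 13.3 and 10.1 RPKM in Bully 25C, 10.02 and 10.2 RPKM in Bully 19C, 6.61 and 7.51 RPKM in CantonS 25C, and 7.95 and 8.58 RPKM in CantonS 19C. Every Bully library was above every CantonS library, with a log2 difference of 0.50 (SE 0.11, limma adjusted p = 0.0278). Dat, the arylalkylamine N-acetyltransferase that acetylates serotonin and dopamine, rose by 0.45 (SE 0.11, adjusted p = 0.0435). Its lines overlapped, with 112.7 RPKM in CantonS 19C b, above the 102.4 and 102.5 RPKM of Bully 25C. The kynurenine 3-monooxygenase gene cn, at 0.31 RPKM or less in every library, rose by 0.98 (SE 0.21, adjusted p = 0.0233). At so low a level this size depends on the pseudocount: it was 0.38 with 0.5 RPKM (adjusted p = 0.0273) and 0.22 with 1 RPKM (adjusted p = 0.03125). The ABC transporter gene st, which works in eye pigment precursor transport, rose by 0.53 (SE 0.13, adjusted p = 0.0381). These routes also make the brown eye pigments, and heads hold both eyes and brain.

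These calls lay close to the threshold, and with single libraries left out the differences kept their direction. KFase no longer passed when either Bully 19C library was left out (adjusted p = 0.105 for a and 0.120 for b), nor in the absence of Bully 25C a (0.0859), nor of CantonS 25C a (0.0778), with differences of 0.40 to 0.50. That of Dat was lost without any 1 library other than CantonS 19C b (adjusted p from 0.0512 to 0.166, differences from 0.37 to 0.51), and with all libraries it was also lost without the filter (0.0542) or without the variance trend (0.0515). That of cn was lost without any 1 Bully library or CantonS 25C a (adjusted p from 0.0507 to 0.113, differences from 0.88 to 1.09). That of st was lost without any 1 library other than Bully 25C b and CantonS 19C a (adjusted p from 0.0684 to 0.169, differences from 0.42 to 0.60), and with all libraries also without the filter (0.0572) or without the variance trend (0.0517).

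At 19C, 1 of the 17 fell in Bully and 0 rose, a share near that of all genes (714 of 10679 lower, 10.3% called in all). It was Dhpr, dihydropteridine reductase, which regenerates the cofactor that tryptophan hydroxylase uses. Dhpr had 19.4 and 19.97 RPKM in Bully 19C, against 38.8 and 35.4 RPKM in CantonS 19C. At 25C it had 22.6 and 23.5 RPKM in Bully and 16.3 and 24.6 RPKM in CantonS, where the lines overlapped. The log2 difference at 19C was -0.91 (SE 0.19, adjusted p = 0.0237). Dhpr no longer passed when any of the 4 libraries compared was left out: the adjusted p was 0.138 and 0.143 after removal of Bully 19C a or b, and 0.0508 and 0.0606 after removal of CantonS 19C a or b. The difference itself stayed between -0.98 and -0.85 in these fits. In the other 5 comparisons limma called 0 of the 17. At an unadjusted p below 0.05 there were 6 between the lines at 25C (17.2% of all genes) and 2 in the interaction (21.2%). Between the temperatures there were 0 in Bully (4.14%), 4 in CantonS (27.7%) and 4 in the average (11.6%). Between the lines there were 7 at 19C (29.0%) and 8 in the average (24.1%).

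Other genes of serotonin handling did not pass in any comparison. Hn, phenylalanine hydroxylase, which in flies also hydroxylates tryptophan outside neurons, was the most abundant of the list in 6 of 8 libraries. Its level was 101 to 137 RPKM in Bully and 79.2 to 98.8 RPKM in CantonS. The lines did not overlap, and the log2 difference averaged over temperatures was 0.47 (SE 0.13, 95% interval 0.18 to 0.77, adjusted p = 0.0591). Ddc, the decarboxylase that makes serotonin and dopamine, differed by -0.17 (SE 0.09, adjusted p = 0.313) in the average. At 19C it had 21.1 and 18.9 RPKM in Bully, against 25.8 and 28.4 RPKM in CantonS, without overlap (-0.44, SE 0.13, adjusted p = 0.0661), and at 25C Ddc differed by 0.11 (SE 0.13, adjusted p = 0.711). The vesicular monoamine transporter gene Vmat differed by 0.05 (SE 0.11, adjusted p = 0.858). CG42796, the receptor gene called 5-HT2B in current annotation, was at 0.67 to 0.88 RPKM in 7 libraries and at 0.31 RPKM in CantonS 19C b. These 4 genes were singled out after their values were seen.

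**Figure D4:**
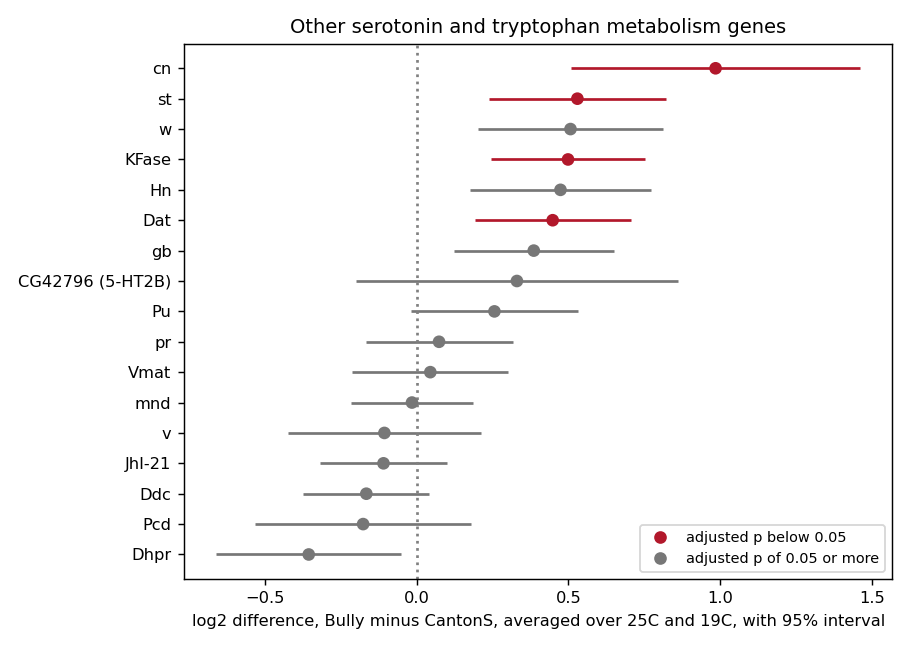
Log2 difference between Bully and CantonS averaged over temperatures (horizontal axis, on the log2(RPKM + 0.1) scale), with its 95% interval from limma, for the 17 listed genes of serotonin and tryptophan metabolism (vertical axis). The 4 genes in red, cn, st, KFase and Dat, had adjusted p between 0.0233 and 0.0435, and no gene of the list passed as lower in Bully.

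Downstream of the receptors, a list of 21 genes held G protein subunits, adenylate cyclases, phosphodiesterase, protein kinase A and C subunits, phospholipases and receptor kinases. Limma called 0 of the 21 in each of the 7 comparisons. At an unadjusted p below 0.05 there were 5 of them between the temperatures in CantonS (27.7% of all genes) and 0 in Bully (4.14%). There were 1 or 2 in each of the other comparisons, beside 11.6% to 29.0% of all genes. Their median log2 difference between Bully and CantonS was 0.04 averaged over temperatures, and that between 25C and 19C in CantonS was 0.20, beside -0.12 over all genes. The largest test statistics were those of Gbeta76C, the G protein beta subunit of photoreceptors, and Pka-C1, the catalytic subunit of protein kinase A. Gbeta76C had 295 and 315 RPKM in Bully 25C, 237 and 225 RPKM in Bully 19C, 182 and 222 RPKM in CantonS 25C, and 256 and 320 RPKM in CantonS 19C. Its interaction was 0.91 (SE 0.25, adjusted p = 0.130), and 0.37 after quantile normalization (adjusted p = 0.254). Pka-C1 had 33.5 and 29.0 RPKM in CantonS 25C, against 23.4 and 23.1 RPKM in CantonS 19C, a log2 difference of 0.42 (SE 0.15, adjusted p = 0.123), and 0.21 with the length trend removed (adjusted p = 0.4365). Of the 21 genes, 12 had their lowest value in CantonS 19C b, among them the adenylate cyclase gene rut, with 3.86 RPKM there and 6.97 to 8.96 RPKM elsewhere. Without this library the interaction of Gbeta76C was 0.75 and the temperature difference of Pka-C1 in CantonS was 0.41. The counts and medians of the list without it are not given, so its part in the list was not tested.

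Of 10 transcription factor genes linked to serotonergic and other neurons, 8 were at or above the mean of 0.1 RPKM needed for the test. Among the 8, zfh1 was higher in Bully at 19C and 0 were lower, a share near the 10.3% of all genes called there. It had 1.10 and 1.40 RPKM in Bully 19C, against 0.74 and 0.42 RPKM in CantonS 19C (log2 difference 1.02, SE 0.24, adjusted p = 0.0373). At 25C zfh1 had 1.06 and 1.05 RPKM in Bully, against 1.20 and 1.07 RPKM in CantonS (log2 difference -0.10, SE 0.24). The call of zfh1 was lost without any 1 library other than CantonS 19C a (adjusted p from 0.0510 to 0.247), and with all libraries also without the filter (0.0586) or in a separate fit of the 2 groups (0.0956). Without CantonS 19C b, in which its value was lowest, the difference of zfh1 was 0.67 (adjusted p = 0.0942). Markers of blood cells (hemocytes) differed at 19C as well: 5 of 10 were higher in Bully and 0 lower. Their median log2 difference was 1.15 over the list. Among the 5, Hml differed by 1.68 (SE 0.33, adjusted p = 0.0201) and nimC1 by 2.25 (SE 0.26, adjusted p = 0.00274). At 25C limma called 0 of the 10. The mean of Hml was 1.65 RPKM in CantonS 19C, against 5.34 RPKM in Bully 25C, 5.60 RPKM in Bully 19C and 5.62 RPKM in CantonS 25C. The marker He went the other way at 19C, with means of 0.23 RPKM in Bully and 0.38 RPKM in CantonS. The summed level of the hemocyte markers was 81.1 and 94.5 RPKM in Bully 19C, against 52.0 and 54.9 RPKM in CantonS 19C, and 0 of the 10 were listed at 0 in any library. Of the 9 glia markers tested, moody and nrv2 were called higher and alrm lower in Bully at 19C. The part of these cells in the zfh1 result was not tested. The transcription factor list had 0 limma calls in the other 6 comparisons. Of its 8 genes, 4 had an unadjusted p below 0.05 between the temperatures in CantonS (27.7% of all genes). There were 4 in the interaction (21.2%), and 0 between the lines at 25C (17.2%) and between the temperatures in Bully (4.14%). The averages had 2 for line (24.1%) and 2 for temperature (11.6%). The serotonergic neuron factor gene eg was at 0.06 to 0.12 RPKM.

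Genes whose pattern over the 8 libraries lay closest to each of the 6 were looked for among 8474 genes averaging 1 RPKM or more. Likeness was the root mean square difference of log2 values after each gene was centred on its mean. For Trh the closest were ND75 (0.031), a subunit gene of mitochondrial complex I, and Rack1 (0.036), which binds ribosomes. For SerT, CG8398 lay at 0.056. For 5-HT1A they were Pp2B-14D (0.040), a calcineurin subunit gene, and CG32206 (0.053). For 5-HT1B they were sd (0.052) and Dcr-2 (0.056). For 5-HT2 they were drongo (0.053) and Lam (0.066), and for 5-HT7 tral (0.052) and px (0.055). The median over all searched genes was 0.22 for SerT, the flattest of the 6, and 0.26 to 0.31 for the other 5.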

How the data were processed

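The authors deposited RPKM per gene for 8 libraries, 1 column each. Per the submitters' processing notes, TopHat2 2.0.4 and edgeR 3.8.6 were used, with the builds dm3 and BDGP5. How the RPKM were scaled is not given in the sources used here. Column headers name line and temperature without replicate numbers.

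The 10679 of 15240 genes averaging 0.1 RPKM or more were tested on log2(RPKM + 0.1), which shrinks differences of low genes. Filter and pseudocount were set low to keep genes of rare cells. All 8 libraries entered 1 fit of 4 group means by the limma package, version 3.58.1, with a mean-variance trend (R version 4.3.3). There were 4 residual degrees of freedom and a prior of 4.1. Each of 7 comparisons had its two-sided p-values adjusted by the Benjamini-Hochberg method, and the threshold was 0.05. The model was tested on simulated data with independent noise. Those data held no trend of a library with gene length, so the test does not cover such a trend.

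Gene lengths and overlaps came from the BDGP6 annotation, so no coordinates are given. Library sizes were computed from single-transcript genes, of which 64.9% to 66.2% gave whole reads within 0.01. Counting errors treat reads as independent molecules. All 110 listed symbols were matched.

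Named genes were the 6 genes, the list genes that passed (at most 6 a list, otherwise the 4 largest test statistics, or the 2 largest where none passed) and the 2 closest in pattern, of which 1 is not reported here. Genes and lists were chosen with earlier results of these data known. The alternatives were other pseudocounts, filters, scalings and variance models, a separate fit per pair of groups, and leaving out each library.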

Additional observations from a re-analysis of the deposited data

How the results depend on the processing

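No paired analysis was possible because the columns carry no replicate numbers. Of 780 alternative values of the 42 differences of the 6 serotonin genes, 718 kept their sign and 1 passed the threshold (Trh between 25C and 19C in CantonS, without CantonS 19C a). Many of these alternatives could not change the sign. Those that alter only the filter or the variance model return the same difference. So do separate fits and fits without a library of a group not compared. The counts over all genes moved more. Between 25C and 19C in CantonS the count was 27, and it was 0 after median-of-ratios rescaling, 0 with the length trend removed, 0 in a separate fit of those groups, 1 without the filter, 1 without the variance trend, 41 and 91 with pseudocounts of 0.5 and 1, 103 with a robust prior, 459 with a filter at 1 RPKM and 544 with that filter and a pseudocount of 0.5. In Bully it was 6, and 0, 2, 2, 12, 13, 15 and 54 for the separate fit, the filter at 1 RPKM alone and with a pseudocount of 0.5, pseudocounts of 1 and 0.5, no variance trend and no filter. In the average over lines it was 5, and 3 with the length trend removed, 9 with a robust prior, and 10 without the filter and with a pseudocount of 1. The line count at 25C was 369, and 196 in the separate fit. The interaction count was 0, and 1 without the filter. With single libraries left out the counts were 122 to 480 (line at 25C), 150 to 1797 (line at 19C), 455 to 1329 (line, averaged), 0 to 6 (temperature in Bully), 0 to 1733 (temperature in CantonS), 0 to 162 (temperature, averaged) and 0 to 369 (interaction). Each of these fits leaves 1 group with 1 library and no spread of its own, so the counts are no replicated result. The highest counts for the line at 19C and for temperature in CantonS came without CantonS 19C a. That fit leaves CantonS 19C b alone in its group. The cause of these moves was not tested. Rescaling by the median of ratios shifted the median of all genes by 0.12 for temperature in CantonS and by -0.13 for the interaction. The share of line calls at 19C that were higher in Bully was 35.1%, and 46.5% to 49.5% with the other scalings. With 2 libraries per group, the 95% intervals of the serotonin genes give the range of differences that remained possible.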
